A study of Mus musculus with 2 samples.

Results

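Glutathione S-transferases (GSTs) and UDP-glucuronosyltransferases (UGTs) are the main conjugating enzymes of the liver. They were examined in livers of mice lacking PPARα and of wild-type mice, both fed the PPARα activator fenofibrate. The members were the probe sets whose platform gene symbol begins with Gsta, Gstm, Gstt, Gstp, Gstk, Gsto, Gstz or Mgst (the GST classes) or with Ugt1a, Ugt2a, Ugt2b or Ugt3a (the UGT classes). This gave 49 of 45037 probe sets, 33 of them GST and 16 UGT. Of these, 44 carry 1 gene symbol and stand for 33 of 18193 named genes (23 GST and 10 UGT genes), and 5 are assigned to several genes at once. The rule uses gene names and no signal, but these gene families were picked for study with earlier results of these data known.

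Both groups were male 129SvEJ mice, 8 weeks old, on chow with 0.2% fenofibrate for 7 days. The Ppara-null mice carry pparalpha -/-, and the wild-type mice carry the intact gene. Liver RNA of 3 mice of each genotype was pooled and each pool was hybridised to 1 Affymetrix array, so the data hold 1 Ppara-null and 1 wild-type array. There is no replicate, no difference below has a test or an error from replicates, and the number of arrays limits the precision. Since both groups received the drug, and no array of mice without it was analysed here, a genotype difference that was already present without the drug and a difference in response to it cannot be told apart. In bulk liver RNA, fewer cells of a type and less RNA per cell cannot be told apart either.

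GSTs join the tripeptide glutathione to electrophilic compounds, among them drug epoxides and products of lipid peroxidation. The alpha, mu, pi, theta, omega and zeta classes are cytosolic, the kappa enzyme sits in mitochondria and peroxisomes, and the Mgst enzymes are membrane proteins of a separate family. UGTs of the endoplasmic reticulum transfer glucuronic acid from UDP-glucuronic acid to bilirubin, steroids, bile acids and drugs, and the conjugates leave the hepatocyte through ABC transporters. The nuclear receptors CAR and PXR, the aryl hydrocarbon receptor and the oxidative stress factor Nrf2 are known regulators of many of these genes in liver.

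Values are signals in the deposited units, in which the trimmed mean of each array is 1000. A signal counted as measured at or above a floor, the median over the array without its control probe sets. The floor was 269.4 for Ppara-null and 287.8 for wild type. Log2 ratios are Ppara-null over wild type after lower signals were raised to the floor, and each gene is represented by whichever of its probe sets had the highest average log2 signal. As a yardstick, log2 ratios from separate probe sets for the same gene scattered with a pooled SD of 0.42 (10117 probe sets, 3917 genes), which contains no spread between animals or pools. The targeted gene Ppara was lower on the Ppara-null array at its 3 probe sets, at 42.9%, 50.6% and 36.0% of the wild-type signal. The 6 hepatocyte markers measured here had signals between 63149 and 237203 on the Ppara-null array and between 40692 and 211813 on the wild-type array.

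Most GST and UGT genes had similar signals in Ppara-null and wild-type liver. Of the 33 genes, 31 were measured on at least 1 array and 28 on both. Only Gstt2, Gstm4 and Ugt3a1 were at least 2-fold lower in Ppara-null liver, and Gstp3 was at least 2-fold higher. The share lower by 2-fold or more was 9.68% (3 of 31) for the conjugation genes and 4.99% for the 13041 genes measured in all, and the share higher was 3.23% (1 of 31) and 2.8%. At 1.5-fold, 4 of 31 were lower (12.9%, against 14.8% of all) and 4 of 31 higher (12.9%, against 11% of all), and at 3-fold 0 of 31 were lower or higher, against 1.01% and 0.445% of all. These counts are small and lie near the background, so they are no result about the families as such. The median log2 ratio was 0.08 for the 21 measured GST genes (-0.30 when the arrays were scaled to control probe sets) and 0.10 for the 10 measured UGT genes (-0.28), against -0.0046 for all measured genes (-0.38).

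**Figure D1:**
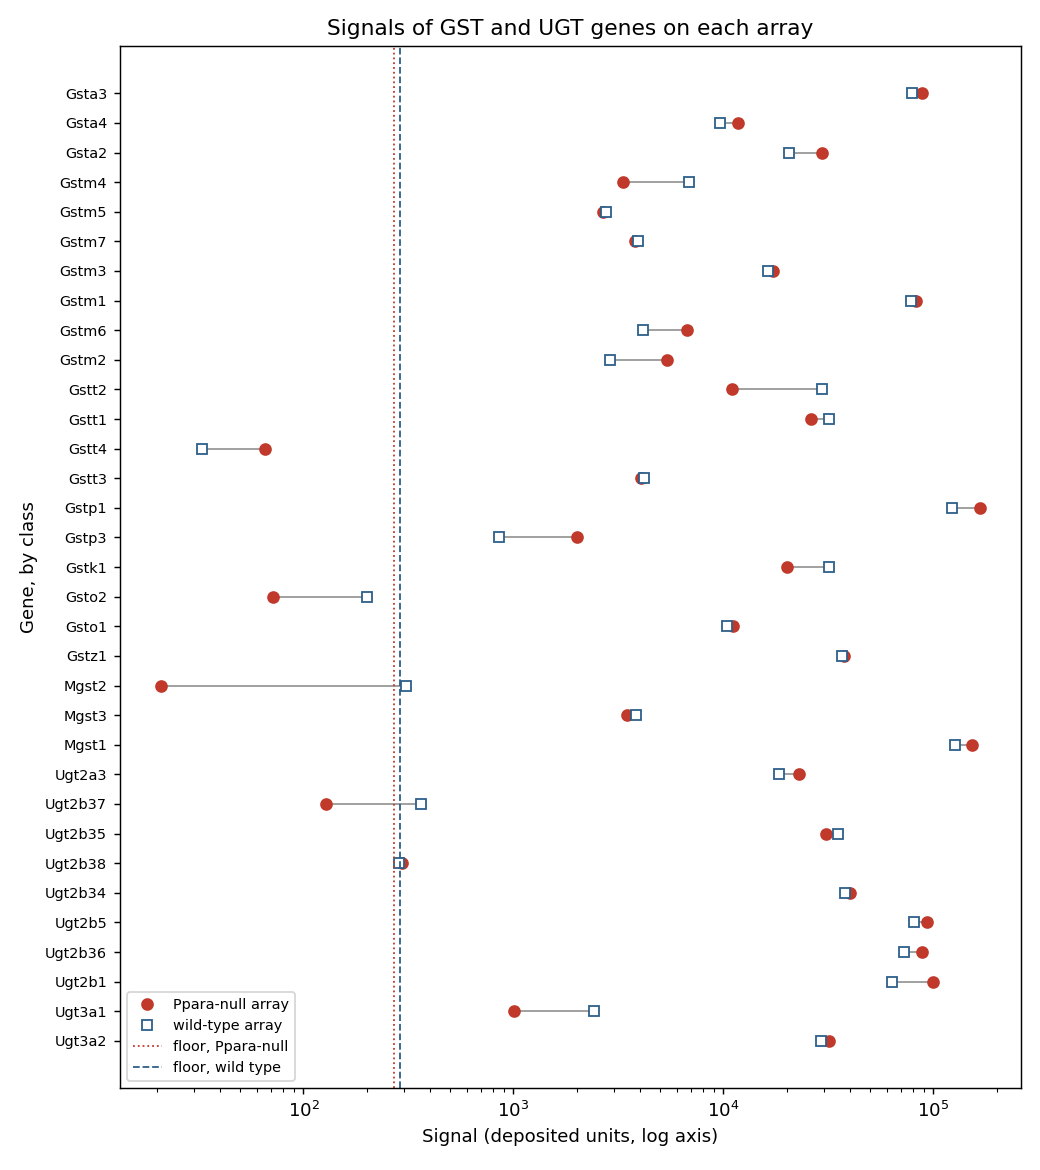
Signal of each GST and UGT gene on the Ppara-null array (filled circles) and the wild-type array (open squares), on a log axis in deposited units, with the floor of each array as a vertical line. Gstt2, Gstm4 and Ugt3a1 lie to the left on the Ppara-null array, Gstp3 lies to the right, and Gstt4 and Gsto2 lie under both floors.

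Scaling between the arrays affects every small difference. Scaling to the 18 hybridization control probe sets, in place of the deposited scaling, gave that shift in the median of all measured genes. Of the 28 conjugation genes measured on both arrays, 18 had a positive log2 ratio as deposited and 6 after the control scaling, namely Gsta2, Gstm2, Gstm6, Gstp1, Gstp3 and Ugt2b1. Under the control scaling 3 GST genes were at least 2-fold lower in Ppara-null and 0 higher, against 2 lower and 1 higher as deposited, because Gstk1 passed the threshold and Gstp3 no longer did. For UGT genes the control scaling gave 1 lower and 0 higher, as did the deposited scaling. The shares of all genes, here and below, hold for the deposited scaling. They are no background for counts after the control scaling, which lowers the ratios of all genes.

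The theta class held the largest difference among the GST genes measured on both arrays. Gstt2, a theta-class transferase, gave 10968 in Ppara-null and 29399 in wild type. The Ppara-null signal was 37.3% of the wild-type signal, a log2 ratio of -1.42 or 2.68-fold lower, and 1.19% of all genes measured on both arrays had a ratio as low or lower. Gstt1, which conjugates small halogenated compounds such as dichloromethane, gave 25994 in Ppara-null and 31858 in wild type (log2 ratio -0.29). Gstt3 gave 4066 in Ppara-null and 4195 in wild type (log2 ratio -0.04). Gstt4 lay under the floor on both arrays, with 65.6 in Ppara-null and 32.9 in wild type, and has no ratio. In the RefSeq gene order of chromosome 10 these genes stand as Gstt3, Gstt1, Gstt4 and Gstt2, so the gene that differed most is at the end of a row whose other measured members stayed within 0.29 on the log2 scale.

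The mu class differed in both directions among neighbouring genes. Gstm4 was lower in Ppara-null, with 3329 against 6819 in wild type, a log2 ratio of -1.03 or 2.05-fold lower, just past the 2-fold threshold. Gstm2 was 1.88-fold higher in Ppara-null (5399 against 2874 in wild type, log2 ratio 0.91), just inside it. Gstm6 gave 6734 in Ppara-null and 4148 in wild type, a log2 ratio of 0.70. These 3 genes, measured by 1 probe set each, lie 2.44, 2.14 and 1.65 times the SD between probe sets of a gene away from 0. Gstm1, a major mu-class enzyme of mouse liver, gave 82748 in Ppara-null and 78243 in wild type. Its 4 probe sets had log2 ratios between -0.18 and 0.16, a difference in sign that lies within the SD between probe sets.

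Gstm3 gave 17246 in Ppara-null and 16372 in wild type (log2 ratio 0.08, and 0.25 at its other probe set). Gstm5 gave 2659 in Ppara-null and 2751 in wild type, a log2 ratio of -0.05. The probe sets of Gstm7, with 3798 and 711.3 in Ppara-null and 3911 and 683.6 in wild type, had log2 ratios of -0.04 and 0.06. The 7 mu genes thus spread over a log2 SD of 0.63 around a median of 0.08, which became -0.30 under the control scaling. Along chromosome 3 they stand in the RefSeq order Gstm5, Gstm7, Gstm6, Gstm3, Gstm2, Gstm1 and Gstm4, with log2 ratios of -0.05, -0.04, 0.70, 0.08, 0.91, 0.08 and -1.03. The genes with higher signals in Ppara-null alternate with genes near 0, and Gstm4 closes the row. Genes of this class are similar in sequence, and the array may not separate all of them.

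**Figure D2:**
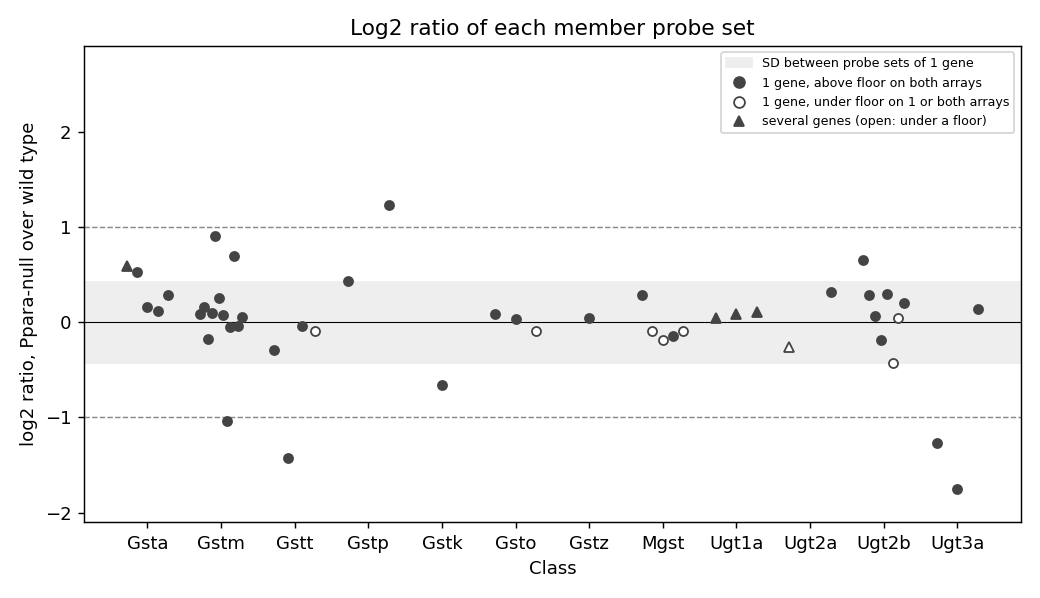
Log2 ratio (Ppara-null over wild type) of each of the 49 probe sets by class, with the SD of 0.42 between probe sets of 1 gene as a grey band and 2-fold differences as dashed lines. The mu class spans -1.03 to 0.91, both Ugt3a1 probe sets lie below -1, and the 3 shared Ugt1a probe sets lie between 0.04 and 0.11.

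The pi class was the class with the highest median. Gstp3 was 2.35-fold higher in Ppara-null, with 2004 against 851.5 in wild type (log2 ratio 1.23). Gstp1, the major pi-class enzyme of male mouse liver, gave 165864 in Ppara-null and 122521 in wild type, a log2 ratio of 0.44. The ratio of Gstp1 is close to the SD between probe sets, and that of Gstp3 is 2.91 times it. Both genes kept a positive sign under the control scaling, at 0.06 for Gstp1 and 0.86 for Gstp3. Gstp1 and Gstp2 are near-identical in mouse and the Gstp1 probe set may also detect Gstp2, which has no value of its own here.

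The alpha class had positive log2 ratios under 1 for all 3 measured genes as deposited, and for Gsta2 alone after the control scaling. Gsta2, an inducible alpha-class enzyme, gave 29550 in Ppara-null and 20548 in wild type (log2 ratio 0.52). A further probe set assigned jointly to Gsta1, Gsta2 and Gm3776 gave 20576 in Ppara-null and 13665 in wild type, a log2 ratio of 0.59. Gsta4, which conjugates the lipid peroxidation product 4-hydroxynonenal, gave 11777 in Ppara-null and 9665 in wild type (0.29). Gsta3, which detoxifies the aflatoxin epoxide in mouse liver, gave 87870 in Ppara-null and 78777 in wild type, and its 2 probe sets had log2 ratios of 0.16 and 0.12. After the control scaling Gsta2 remained positive at 0.14, while Gsta4 (-0.09) and Gsta3 (-0.22) turned negative.

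Of the classes with single measured genes, kappa stood apart. Gstk1, the transferase of mitochondria and peroxisomes, gave 20158 in Ppara-null and 31752 in wild type, 63.5% of the wild-type signal and a log2 ratio of -0.66. Gstz1, the maleylacetoacetate isomerase of tyrosine breakdown, gave 37671 in Ppara-null and 36507 in wild type (0.05). Gsto1, a thiol transferase that can reduce dehydroascorbate, gave 11065 in Ppara-null and 10417 in wild type (0.09, and 0.03 at its other probe set). Gsto2 lay under the floor on both arrays, with 71.7 in Ppara-null and 201.6 in wild type. The difference of Gstk1 is 1.54 times the SD between probe sets of a gene, whereas those of Gstz1 and Gsto1 lie inside it.

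The microsomal transferases showed little difference where they could be measured. Mgst1, the microsomal enzyme with both transferase and peroxidase activity, gave 153076 in Ppara-null and 126028 in wild type (log2 ratio 0.28, and -0.10 after the control scaling). Mgst3 gave 3461 in Ppara-null and 3834 in wild type, a log2 ratio of -0.15. Second probe sets of both genes lay under the floor on both arrays. Mgst2, which can form leukotriene C4, gave 20.9 in Ppara-null and 306.6 in wild type. It passed the floor through the wild-type array alone, so its difference has only a bound of at least 1.14-fold lower in Ppara-null. Its wild-type signal also lay under that of the Bacillus control with the highest signal on that array (316.5), so no level can be assigned to Mgst2.

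Among the UGT genes, Ugt3a1 differed most. Its probe sets gave 1011 and 844.0 on the Ppara-null array, against 2431 and 2832 on the wild-type array. Both were lower in Ppara-null, by 2.40-fold (log2 ratio -1.27) at the probe set that stands for the gene and by 3.35-fold (-1.75) at the other. The human UGT3A1 enzyme uses UDP-N-acetylglucosamine instead of UDP-glucuronic acid. Ugt3a2, the neighbouring gene on chromosome 15, gave 31957 in Ppara-null and 29083 in wild type, a log2 ratio of 0.14. The 2 genes of the class therefore differed by more than 1 on the log2 scale in these arrays, and the suffix of the probe set for Ugt3a1 with the smaller ratio (_s_at) marks probes that can match more than 1 transcript.

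The Ugt1a genes are transcribed from separate first exons onto shared downstream exons, and the best known, Ugt1a1, glucuronidates bilirubin. The array reads them through 3 probe sets that the annotation gives jointly to 8 Ugt1a genes, so no single Ugt1a gene can be named. These probe sets gave 46156, 98996 and 59578 in Ppara-null and 44825, 93401 and 55386 in wild type. Their log2 ratios of 0.04, 0.08 and 0.11 lie within the SD between probe sets. The pooled signal of the locus was thus within 1.08-fold between the arrays as deposited, which does not show that the single Ugt1a transcripts were alike.

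Ugt2b enzymes glucuronidate steroids, bile acids and drugs, and the 5 Ugt2b genes measured on both arrays differed by less than 2-fold. Ugt2b1 gave 99815 in Ppara-null and 63313 in wild type, 1.58-fold higher (log2 ratio 0.66), the largest difference among these genes. Ugt2b36 gave 88355 in Ppara-null and 72144 in wild type (0.29). Ugt2b5 gave 92840 in Ppara-null and 80689 in wild type (0.20). Only Ugt2b1 lay outside the SD between probe sets among these genes. Ugt2b34 gave 39921 in Ppara-null and 38105 in wild type (0.07, and 0.28 at its other probe set), and Ugt2b35 gave 30749 in Ppara-null and 35125 in wild type (-0.19).

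Ugt2b37 and Ugt2b38 were near the floor. Ugt2b37 gave 127.4 in Ppara-null and 361.5 in wild type, at least 1.34-fold lower in Ppara-null (log2 ratio -0.42 after the floor). That value depends on the floor, being more than 2-fold lower with no floor and positive (0.22) when the Bacillus controls set the floors, where the Ppara-null floor exceeds the wild-type signal. Ugt2b38 gave 295.9 in Ppara-null and 284.7 in wild type, of which only the first lies above its floor. Ugt2a3 gave 22804 in Ppara-null and 18323 in wild type (log2 ratio 0.32). A probe set shared by Ugt2a1 and Ugt2a2, genes known from olfactory tissue, gave 237.4 in Ppara-null and 323.7 in wild type and was under the floor in Ppara-null. The median of the 5 Ugt2b genes measured on both arrays was 0.20 on the log2 scale, and Ugt2b1 (0.28) was the Ugt2b gene still positive after the control scaling.

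**Figure D3:**
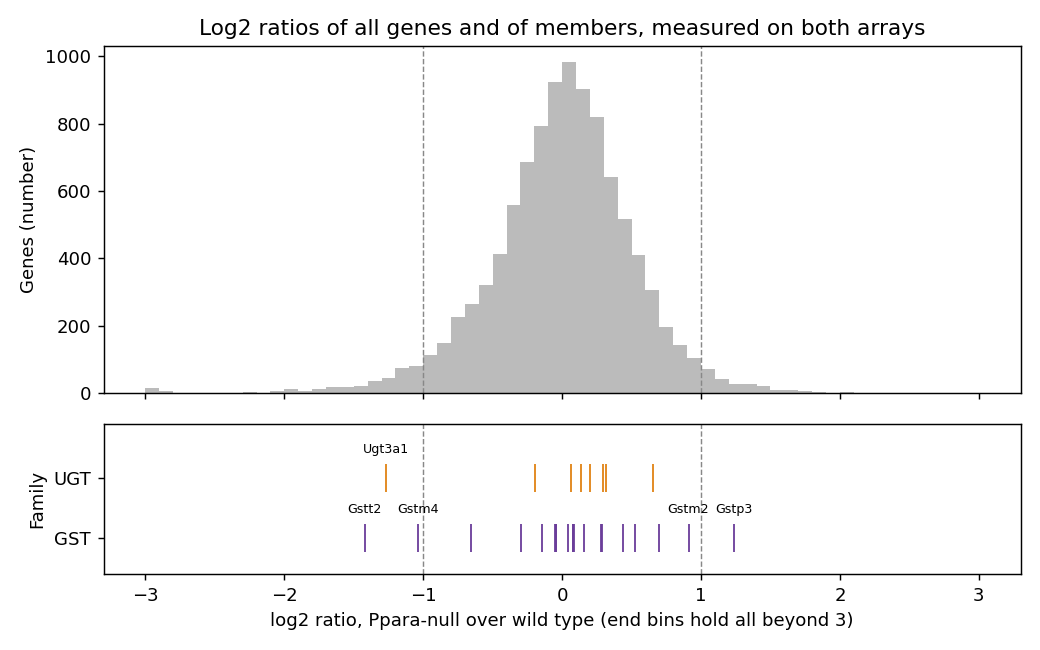
Histogram of the log2 ratios (Ppara-null over wild type) of the 10060 genes measured on both arrays, above the ratios of the 20 GST and 8 UGT genes drawn as ticks, with 2-fold differences as dashed lines. Of these 28 genes, 23 lie in the middle 90% of all genes, 3 below it (Gstt2, Ugt3a1 and Gstm4) and 2 above it (Gstm2 and Gstp3).

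Promoter sequences show what members share beyond their names. RefSeq promoter windows of GRCm38.p6, which run from 250 bases before to 50 bases after a gene start, were found for 30 of the 33 genes (39 windows). Windows for Gsta4, Gstt2 and Ugt3a2 were not used here. The 3 windows of genes at least 2-fold apart are shown to let a reader inspect them, 5′ to 3′ on the strand of the gene. Capitals mark any match to the motifs searched on both strands, which were AGGTCANAGGTCA (a direct repeat bound by PPARα with its partner RXR), the half-site AGGTCA, TGACNNNGC (the core of the antioxidant response element bound by Nrf2) and GCGTG (the core bound by the aryl hydrocarbon receptor). A half-site also lies within each direct repeat.
Gstm4, chr3:108044810-108045109, minus strand: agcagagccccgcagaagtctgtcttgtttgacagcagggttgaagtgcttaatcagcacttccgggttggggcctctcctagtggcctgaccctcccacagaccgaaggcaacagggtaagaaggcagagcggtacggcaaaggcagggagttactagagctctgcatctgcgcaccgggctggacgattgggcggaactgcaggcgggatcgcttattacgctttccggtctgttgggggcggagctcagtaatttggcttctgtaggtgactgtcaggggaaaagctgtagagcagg
Ugt3a1, chr15:9279579-9279878, plus strand: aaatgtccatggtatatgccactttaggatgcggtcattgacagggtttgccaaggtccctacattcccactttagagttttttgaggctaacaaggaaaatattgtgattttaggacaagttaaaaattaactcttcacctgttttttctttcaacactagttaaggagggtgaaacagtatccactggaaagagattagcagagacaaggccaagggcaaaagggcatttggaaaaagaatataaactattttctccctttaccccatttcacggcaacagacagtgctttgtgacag
Gstp3, chr19:4059398-4059697, minus strand: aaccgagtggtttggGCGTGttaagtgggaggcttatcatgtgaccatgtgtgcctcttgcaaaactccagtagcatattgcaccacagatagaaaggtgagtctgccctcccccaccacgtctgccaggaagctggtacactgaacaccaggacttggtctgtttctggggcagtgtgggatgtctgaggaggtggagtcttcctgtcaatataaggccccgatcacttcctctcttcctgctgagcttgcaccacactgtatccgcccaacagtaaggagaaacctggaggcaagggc
Of these 3 windows only that of Gstp3 holds a match, GCGTG at 235 bases before the start. That motif was found in windows of Gsta2, Gstm1, Gstm5, Gstp1, Gstp3 and Mgst3 (17.9% of the 39 windows, against 32.4% of all 32851). In the windows of Gstm4 and Ugt3a1 none of these letters was found, which says nothing about binding elsewhere. The full direct repeat was found in 0 of the 39 windows and in 0.0396% of all windows. The antioxidant core was found in windows of Gsta3, Gstm5, Gstm7 and Mgst1 (10.3% of the 39 windows, against 12.4% of all).

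The half-site AGGTCA stood in 5 of the 7 Ugt2b windows, against 2 of the 30 GST windows (those of Gstk1 and Gstm1) and 16.3% of all windows. The stretches around it in Ugt2b genes are shown because they are nearly the same sequence, with the half-site in capitals.
Ugt2b5, chr5:87140342-87140377, minus strand: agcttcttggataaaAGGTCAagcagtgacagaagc
Ugt2b37, chr5:87254807-87254842, minus strand: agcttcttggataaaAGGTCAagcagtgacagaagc
Ugt2b38, chr5:87424208-87424243, minus strand: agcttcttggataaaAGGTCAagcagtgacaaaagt
Ugt2b36, chr5:87092560-87092595, minus strand: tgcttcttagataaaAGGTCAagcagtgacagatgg
Ugt2b35, chr5:87000820-87000855, plus strand: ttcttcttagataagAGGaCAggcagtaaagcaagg
Over these 36 bases Ugt2b37 is identical to Ugt2b5, and 34 bases of Ugt2b38 and 32 bases of Ugt2b36 are the same. In these 4 genes the half-site begins 22, 39, 25 and 25 bases before the start of Ugt2b5, Ugt2b37, Ugt2b38 and Ugt2b36. Ugt2b35 shares 25 of the 36 bases at this place and lacks the exact half-site there, with capitals for the letters of it that match, and its own AGGTCA begins 215 bases before the start. The windows of Ugt2b1 and Ugt2b34 hold no AGGTCA, and their closest ungapped stretches share 19 and 17 bases. Paralogous genes share sequence by descent, so these windows are not independent of each other. Of the genes with the common stretch, Ugt2b5 and Ugt2b36 had log2 ratios of 0.20 and 0.29 and Ugt2b37 and Ugt2b38 were at the floor, while Ugt2b1, Ugt2b34 and Ugt2b35 without it had 0.66, 0.07 and -0.19.

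Genes that make and recycle glutathione were mostly within 2-fold. In a list of 16 measured genes, 2 lay 2-fold or more lower in Ppara-null and 0 higher, with a median log2 ratio of 0.29 (-0.09 after the control scaling), against 4.99% and 2.8% of all measured genes. Oplah, the 5-oxoprolinase that returns glutamate to glutathione synthesis, was 3.50-fold lower, with 1431 in Ppara-null and 5003 in wild type. Ggct, the cyclotransferase that forms 5-oxoproline from gamma-glutamyl peptides, was 2.22-fold lower at low signals (325.1 in Ppara-null and 721.6 in wild type), and its Ppara-null signal lay under that of the Bacillus control with the highest signal on that array (422.4). Chac1, which degrades glutathione, gave 1257 in Ppara-null and 780.5 in wild type (log2 ratio 0.69). The subunits of glutamate-cysteine ligase, the first enzyme of glutathione synthesis, had log2 ratios of 0.15 for Gclc (-0.18 at its other probe set) and 0.51 for Gclm (0.36). Glutathione reductase (Gsr) had -0.59, and -0.16 at its other probe set.

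**Figure D4:**
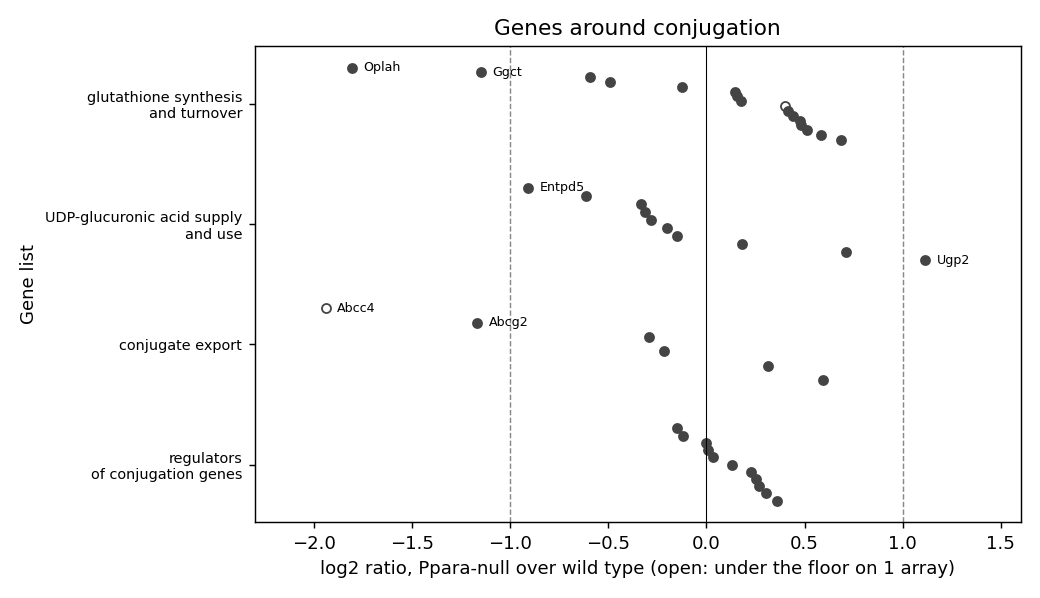
Log2 ratio (Ppara-null over wild type) of each measured gene in 4 gene lists around conjugation, with open circles for genes under the floor on 1 array and dashed lines at 2-fold. Oplah, Ggct, Abcc4 and Abcg2 lie below -1 and Ugp2 lies above 1. The 11 measured regulators lie between -0.15 and 0.36 at the probe set that stands for each gene.

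In the supply and use of UDP-glucuronic acid, 1 of 10 measured genes was at least 2-fold higher in Ppara-null and 0 were lower, against 2.8% and 4.99% of all measured genes, with a median log2 ratio of -0.24 (-0.62 after the control scaling). After the control scaling the counts were 0 higher and 1 lower (Entpd5). Ugp2, which makes UDP-glucose, was 2.17-fold higher, with 36238 in Ppara-null and 16722 in wild type, and its 4 other probe sets had log2 ratios between 0.78 and 0.95. After the control scaling its log2 ratio was 0.74. Ugdh, which oxidises UDP-glucose to UDP-glucuronic acid, gave 20813 in Ppara-null and 25816 in wild type (-0.31). Entpd5, a UDPase of the endoplasmic reticulum, gave 10683 in Ppara-null and 20070 in wild type (-0.91, and -1.29 after the control scaling). Its other probe sets above both floors had log2 ratios between -1.07 and -0.29 as deposited. Slc37a4, the glucose-6-phosphate transporter, gave 23487 in Ppara-null and 14343 in wild type (0.71).

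Among 6 measured exporters of conjugates, 2 were at least 2-fold lower in Ppara-null and 0 higher, against 4.99% and 2.8% of all measured genes, with a median log2 ratio of -0.25 (-0.63 after the control scaling). Abcg2, an exporter of sulfate and glucuronide conjugates at the bile canaliculus, was 2.25-fold lower, with 11993 in Ppara-null and 26983 in wild type. Abcc4, an exporter at the blood side of the hepatocyte, was at least 3.84-fold lower, with 222.1 in Ppara-null, under the floor, and 1034 in wild type. Abcc2, which carries glutathione and glucuronide conjugates into bile, gave 1735 in Ppara-null and 1148 in wild type (0.60). The regulators had 0 of 11 measured genes 2-fold apart and a median log2 ratio of 0.13 (-0.25 after the control scaling). Their largest log2 ratios were those of Mafg (0.36), Hnf4a (0.31, with -0.16 to 0.47 at its other probe sets) and Nr1h4 (0.27). The CAR gene Nr1i3 had 0.03, the PXR gene Nr1i2 -0.12, Ahr 0.23 and the Nrf2 gene Nfe2l2 -0.15. Other probe sets above both floors spread more widely, with 0.89 for Keap1 and -0.43 to 0.47 for Arnt.

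Related enzymes outside the classes had 0 of 9 measured genes 2-fold apart, against 4.99% lower and 2.8% higher of all measured genes. Their median log2 ratio was -0.34. After the control scaling the median was -0.71 and 1 gene, Ugcg, was at least 2-fold lower in Ppara-null. Ugcg, which makes glucosylceramide, had the largest ratio at -0.92 (-1.30 after the control scaling), while 2 further probe sets, measured on both arrays, had -1.18 and 0.31. Vars (-0.55) and the leukotriene C4 synthase gene Ltc4s, under the floor in Ppara-null at 76.7 against 373.0 in wild type, followed. In a list of known PPARα response genes, 8 of 12 have a value. Of these 8, 7 lay 2-fold or more lower in Ppara-null, against 4.99% of all measured genes. Their median log2 ratio over the 8 was -2.64 (-3.02 after the control scaling). Fabp1 was the exception, at -0.22 and at 0.006 at its other probe set. Cyp4a14 was at least 389-fold lower, Vnn1 172-fold, Cd36 17.8-fold, Ehhadh 7.46-fold, Acot1 5.21-fold, Pdk4 3.80-fold and Plin2 3.19-fold. The Ppara-null signal of Vnn1 (307.4) lay under that of the Bacillus control with the highest signal there (422.4), so its fold is uncertain. The Gstt2 ratio of -1.42 was smaller in size than the median of these response genes.

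Markers of cell types and liver zones moved as well. The summed signal of the Kupffer cell markers was 13081 in Ppara-null and 7979 in wild type, with 5 of 6 markers measured and Marco under both floors. Their median log2 ratio was 0.63 (0.25 after the control scaling), with Cd68 in the other direction at 204.3 in Ppara-null, under the floor, and 373.5 in wild type. The pericentral hepatocyte markers, whose zone is known for high conjugation capacity, had a median log2 ratio of 0.87 over 10 measured genes, with 3 at least 2-fold higher in Ppara-null, against 2.8% of all measured genes. After the control scaling the median was 0.49 and 1 was at least 2-fold higher. As deposited 9 of the 10 pericentral ratios were positive, with Cyp2e1 at 0.27, and Glul was negative at -0.07. After the control scaling Cyp2e1 had -0.11 and Glul -0.45. Periportal markers had a median of 0.41 over 6 measured genes (0.03 after the control scaling), with 1 (Ass1) at least 2-fold higher under both scalings. As deposited this compares with 2.8% of all measured genes. Ass1 had the lowest signals of these markers, with 1406 in Ppara-null and 501.4 in wild type. Hepatocyte markers had a median of 0.26 over 6 measured genes (-0.12 after the control scaling). The summed signal of 5 cholangiocyte markers was 1199.5 in Ppara-null and 930.9 in wild type, and that of 6 stellate cell markers was 8359 in Ppara-null and 6693 in wild type. For 6 endothelial markers it was 11290 in Ppara-null and 10118 in wild type, and for 2 erythroid markers 7284 in Ppara-null and 4523 in wild type. For 5 lymphocyte markers it was 1581 in Ppara-null and 1410 in wild type. The cholangiocyte and lymphocyte sums are not read as levels, since 0 cholangiocyte markers and 1 lymphocyte marker (Cd8a) lay above the floor on both arrays. Krt19 and Epcam lay above it in Ppara-null alone and Sox9 in wild type alone. The other sums rest on a few bright markers. Of the 5 measured stellate cell markers, 3 were lower in Ppara-null (median log2 ratio -0.20). Pecam1, an endothelial marker, was at least 2.36-fold lower, with 228.0 in Ppara-null, under the floor, and 636.9 in wild type. The erythroid marker Hba-a1 gave 250.8 in Ppara-null, under the floor, and 332.6 in wild type. Krt7, Cftr, Col1a1, Vwf, Cd3e, Cd4 and Cd79a lay under the floor on both arrays. The part of these differences in the GST and UGT values was not tested.

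**Figure D5:**
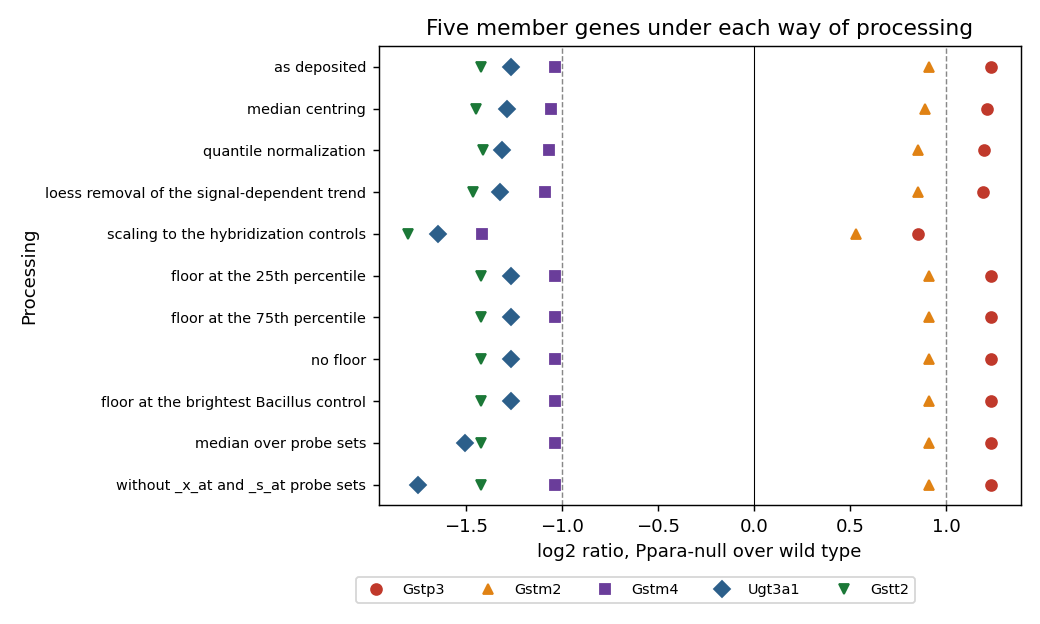
Log2 ratio (Ppara-null over wild type) of Gstp3, Gstm2, Gstm4, Ugt3a1 and Gstt2 as deposited and under 10 alternative ways of processing, with dashed lines at 2-fold. Gstt2, Ugt3a1 and Gstm4 stay below -1 throughout, Gstm2 stays under 2-fold, and Gstp3 drops to 0.86 when the arrays are scaled to the hybridization controls.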

How the data were processed

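Liver RNA pools of 3 mice per genotype were measured on 2 arrays, 1 Ppara-null and 1 wild type. The deposited intensity values are linear signals, 1 per probe set, made by the authors with the Affymetrix statistical algorithm and scaled to a target of 1000, per the labels. The software version is not given in the sources used here, and detection calls were not used. Symbols were taken from the 2016 platform annotation. Of 45037 probe sets that are not controls, 34945 had 1 symbol, 932 several and 9160 none listed here. All 33 member genes matched the RefSeq table (GRCm38.p6) by gene ID, with 0 symbols changed. No build is named for the array, so coordinates are given for RefSeq promoter windows only.

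Signals were used without further scaling. Floors were the median of each array, and a call was a difference of 2-fold or more after the floor, computed over all genes with Python 3.11.15, numpy 2.4.6 and pandas 2.3.3. No test was made, since each genotype has 1 array. A probe set with a member symbol among several counted as a member but has no gene value. In simulated data over 18193 genes, changes were planted only in genes whose mean log2 signal reached the mean of the 2 floors. Dimmer genes received none, so the rates at planted changes do not cover them. Of genes planted at a log2 change of 3 or -3, 100% were called. The share was 80% at 1.5, 88% at -1.5 and 1.78% of those planted at 0. The simulated noise had the SD of 0.42 between probe sets of a gene, which contains no spread between animals or pools. These rates therefore do not give the error rates of a comparison between pools. Values are given for members 2-fold apart, for leading members of each class, for member genes whose probe sets disagree and for list genes 2-fold apart or among the 3 largest. Some further members and list genes were named after their values were seen. Members, lists and motifs were chosen with earlier results of these data known. The alternatives were other scalings (including loess with statsmodels 0.14.6), floors, probe set rules and fold thresholds.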

Additional observations from a re-analysis of the deposited data

How the results depend on the processing

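Gstt2, Gstm4 and Ugt3a1 stayed at least 2-fold lower in Ppara-null under all 10 alternatives of scaling, floor and probe set choice, and Gstp3 stayed at least 2-fold higher under 9, falling to a log2 ratio of 0.86 with scaling to the hybridization controls. The floors left the ratios of these 3 lower genes unchanged. The control scaling and median centring lower every ratio alike, so they could not end these calls. Gstt2, Gstm4 and Gstp3 have 1 probe set each, so the probe set rules could not change their ratios. For Gstt2 and Gstm4 only quantile normalization and loess could have ended the call, so most of these alternatives do not measure how stable it is. The control scaling left 0 GST genes at least 2-fold higher. With the floor at the 25th percentile or no floor, 4 GST and 2 UGT genes were at least 2-fold lower. The genes added were Mgst2, Gsto2 and Ugt2b37, all dim in Ppara-null, and Gsto2 lies under both floors of the main setting. The shares of all genes under these floors are not given here, so the counts have no background. At a 3-fold threshold 0 GST genes were lower, 0 higher, and 0 UGT genes were lower, and at 1.5-fold 3 GST genes and 1 UGT gene were higher. Over all alternatives the median log2 ratio lay between -0.30 and 0.09 for GST genes and between -0.28 and 0.20 for UGT genes, both lowest under the control scaling. Of 305 values of single member genes under the alternatives, 299 moved by less than the SD between probe sets and 6 by more, which were those of Mgst2, Ugt2b37 and Ugt3a1. The control scaling shifts every log2 ratio by -0.38, less than that SD, so its values could not count as moved. Floors cannot move genes far above them, and probe set rules cannot move genes with 1 probe set. This count therefore does not measure stability. The log2 ratio of Ugt2b37, -0.42 as reported, was 0.22 with floors at the Bacillus controls, where the floor for Ppara-null (422.4) exceeds its wild-type signal. No paired analysis was possible because each genotype has 1 array. The number of arrays limits every value, and signals near the floor (Mgst2, Ugt2b37, Ugt2b38) give bounds or no level.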
